A study of Drosophila simulans with 12 samples.

Results

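Testis of sterile Drosophila simulans males was compared with testis of fertile males on 3 arrays per line, which are 6 of the 12 arrays of the series. The other 6 arrays hold abdomens of the same lines and are set beside the testis values only at the end. Males of both lines were 3 to 4 days old and carried D. mauritiana DNA over about 1/10 of the X chromosome. Per the labels, the sterile line has the S variant and the fertile line the F variant of the OdsH locus from D. mauritiana, and the introgressions differ by roughly 3 Kb, a stretch holding exons 3 and 4 of OdsH. The comparison asks which transcripts differ between the lines. Each state is a single line, so the OdsH stretch and any other difference between the lines cannot be told apart. No males without an introgression were analysed here. Testes of on average 150 males per line were dissected, and 3 RNA extractions per line were hybridised. The labels do not state whether separate cultures were used for the extractions, and the p-values below reflect only how the arrays of a line varied, which may be technical variation.

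OdsH encodes a homeodomain protein, the kind of transcription factor that binds DNA through a homeobox-encoded domain, and it is known as a gene of hybrid male sterility between these species. In the fly testis, germline stem cells at the apical hub give rise to spermatogonia, which become spermatocytes, pass through meiosis and differentiate into elongated spermatids that are separated from each other at individualization. Most genes used by spermatids are transcribed earlier, in spermatocytes, under testis-specific forms of general transcription factors, and a small class (cup and comet genes) is transcribed after meiosis.

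The measured quantity is the intensity of a probe set, a group of short probes for 1 transcript, on an array designed for D. melanogaster genes. Mismatches between these probes and D. simulans or D. mauritiana sequence were not corrected, so the order of intensities between probe sets served only to choose genes and 1 probe set per gene, and is no order of transcript levels. Whether mismatches differ between the lines, and what part they have in the fold changes of single probe sets, was not tested. Array medians were 212.2 to 216.2 for sterile and 219.4 to 221.9 for fertile testis, and each array was scaled to their mean before the test. Replicate arrays correlated across probe sets at 0.993 to 0.995 on the log2 scale and arrays of different lines at 0.968 to 0.969, where probe sets are not independent replicates. Fold changes are sterile over fertile on the log2(intensity + 16) scale, which understates changes of dim probe sets. A probe set was tested where the authors' present calls covered every array of 1 line or of both, and it was called changed at a limma adjusted p under 0.05. In whole-organ RNA, fewer cells of a type and less RNA per cell cannot be told apart.

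Differences between the lines were common and mostly small. Of 18769 probe sets 9927 were tested and 5877 (59.2%) were called, 2964 (29.9%) higher and 2913 (29.3%) lower in sterile testis. With the intensities as deposited the split was 2245 higher and 3750 lower. The 3 sterile and 3 fertile values did not overlap for 6309 tested probe sets (63.6%). The median absolute log2 fold change of the called probe sets was 0.24. A change of at least 1, a factor of 2, was reached by 106 higher (1.07%) and 122 lower (1.23%) probe sets. A change of at least 2 was reached by 18 higher and 50 lower.

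The size of the changes went with the mean log2 intensity. The tested probe sets were divided by the mean of their log2 values over the arrays into 4 groups of 2481 or 2482. Mean intensities overlapped between the groups, reaching 1078 in the dimmest and starting at 218.2 in the next. A probe set bright in 1 line and at background in the other has a lowered mean log2 value. A large change can thus itself place a probe set in a dimmer group. The part of this in the sizes below was not tested. In the dimmest group 45.5% were called, 61 of them at least 1 higher and 62 at least 1 lower on the log2 scale. In the brightest group 65.8% were called, but only 3 were at least 1 higher and 2 at least 1 lower. The median absolute log2 change of the called probe sets was 0.38 in the dimmest and 0.14 in the brightest group. The median residual SD was 0.1 in the dimmest and 0.032 in the brightest group. Probe sets of the brightest group were thus called at smaller changes.

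**Figure D1:**
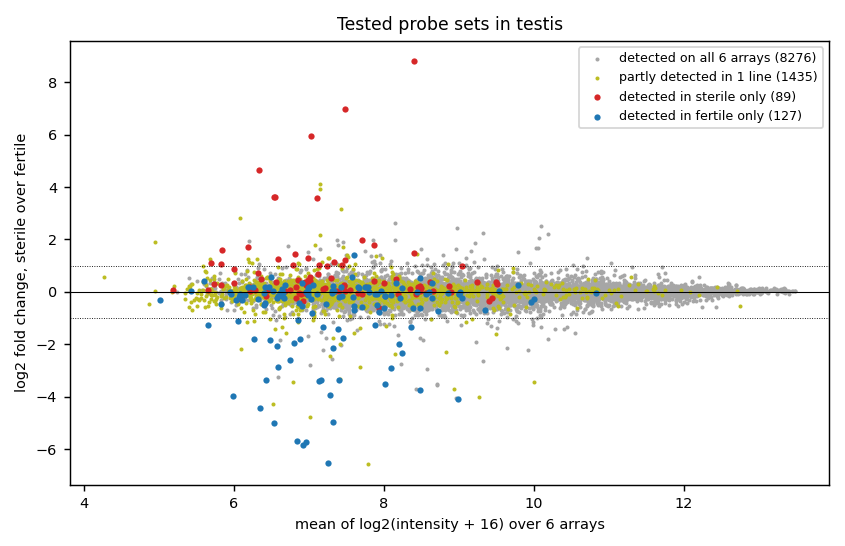
Log2 fold change of sterile over fertile testis (vertical axis) against the mean of log2(intensity + 16) over the 6 arrays (horizontal axis), 1 point per tested probe set, coloured by the authors' present calls. Dotted lines mark changes of 1 either way. Most of the 8276 probe sets detected on all 6 arrays lie close to 0, and a change of at least 1 was reached by 1.35% of them, 25.8% of those detected in sterile testis only, 28.3% of those detected in fertile testis only and 3.97% of the rest.

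Sperm genes gave bright signals in both lines. Mst84Dc, of a family of sperm tail proteins, measured 10877, 10977 and 10916 in sterile and 10422, 10605 and 10700 in fertile testis, and S-Lap7, a leucyl aminopeptidase abundant in sperm, measured 10783, 10846 and 10740 in sterile and 9723, 10124 and 10199 in fertile testis. They were chosen, with CG33340, CG10252 and Acp36DE, because their probe sets had the highest mean signal of the tested genes. Acp36DE, a seminal protein gene of the accessory gland, a neighbouring organ of the male tract, measured 10458, 10659 and 10472 in sterile and 11180, 11100 and 11186 in fertile testis. The changes in these 5 genes were between -0.083 and 0.11 on the log2 scale. The value of Mst84Dc, 0.047, turned to -0.002 with intensities as deposited.

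Among probe sets detected on all 6 arrays, 56 rose and 56 fell by at least 1 on the log2 scale, and 61.2% of all 8276 were called. The largest rise was that of Cyp28d2, a cytochrome P450 of the family that oxidises foreign and endogenous compounds. Its intensities were 692, 687 and 697 in sterile and 98.8, 92.5 and 103 in fertile testis, a log2 fold change of 2.63 ± 0.056 (SE, limma adjusted p = 6.96e-19). The next were CG15394, at 2577, 2614 and 2554 in sterile and 447, 431 and 451 in fertile testis, and CG12917, at 1386, 1389.8 and 1366 in sterile and 280.2, 273 and 283 in fertile testis. Genes named as the largest changes had to show no overlap between the lines, and in these 3 the sterile arrays lay far above the fertile ones. Drs, which encodes the antifungal peptide drosomycin, measured 2424, 2565 and 2531 in sterile and 519, 529 and 529 in fertile testis, a change of 2.22 ± 0.033 (SE). Rab19, a small GTPase of the family that directs membrane traffic, measured 1104, 1144 and 1125 in sterile and 289, 297 and 304 in fertile testis. Pop2, a catalytic deadenylase of the CCR4-NOT complex that shortens mRNA tails, measured 1927, 1853 and 1856 in sterile and 572, 571 and 597 in fertile testis. Rab19 rose by 1.87 and Pop2 by 1.67 on the log2 scale. Antdh, a dehydrogenase, rose by 1.66, and cutlet, related to the clamp loaders of DNA replication, by 1.63. The rest of the 15 largest rises were genes known here by number, namely CG10344 (2.05), CG42788 (1.98), CG13679 (1.96), CG13743 (1.93), CG13728 (1.92), CG2736 (1.79) and CG16772 (1.56). CG13743 is dim, at 136, 124 and 122 in sterile and 23.2, 22.8 and 19.1 in fertile testis, and its log2 change was 2.36 with a pseudocount of 4 and 1.16 with 64.

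The largest falls among probe sets detected on all 6 arrays included those of the protease genes yip7, Bace and Jon74E. yip7, a serine protease, measured 117, 94.3 and 113 in sterile and 1988, 2015 and 2032 in fertile testis, a log2 fold change of -4.04 ± 0.056 (SE, limma adjusted p = 6.82e-22). Bace, an aspartic protease, measured 105, 118 and 103.5 in sterile and 1376, 1392 and 1411 in fertile testis. Jon74E, of the Jonah family of gut serine proteases, measured 102, 110.5 and 89.1 in sterile and 773, 764 and 754 in fertile testis. For these 3 genes no sterile value came within a factor of 2 of a fertile value. Oatp58Dc, a transporter of organic anions, averaged 241 ± 6.13 on the sterile against 1589 ± 24 on the fertile arrays (SD, n = 3 each), a change of -2.64. Other falls were those of Grl65a, related to gustatory receptors (-3.24), Usp15-31, a ubiquitin-specific protease (-2.79), NimC3, of the Nimrod family of phagocytic receptors (-2.23), and Acbp5, an acyl-CoA binding protein (-2.01). Grl65a is dim in sterile testis, at 9.05, 18.8 and 19.1 in sterile and 263, 288 and 287 in fertile testis, and its log2 change was -3.90 with a pseudocount of 4 and -2.11 with 64. mRpS35, a protein of the mitochondrial ribosome, measured 397, 358 and 329 in sterile and 1696, 1607 and 1705 in fertile testis. The remaining falls were those of CG10472 (-3.70), CG34324 (-3.54), CG14645 (-2.96), CG18528 (-2.55), the long noncoding RNA lncRNA:CR32368 (-1.85) and CG18081 (-1.81).

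In the authors' deposited table a mark on selected probe sets stands beside all 30 of these genes. It stands beside 109 of the 112 probe sets that changed by at least 1 among those detected on all 6 arrays. In the same deposited table it stands beside 0 of the 23 and 0 of the 36 such probe sets detected in the sterile or in the fertile line only.

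**Figure D2:**
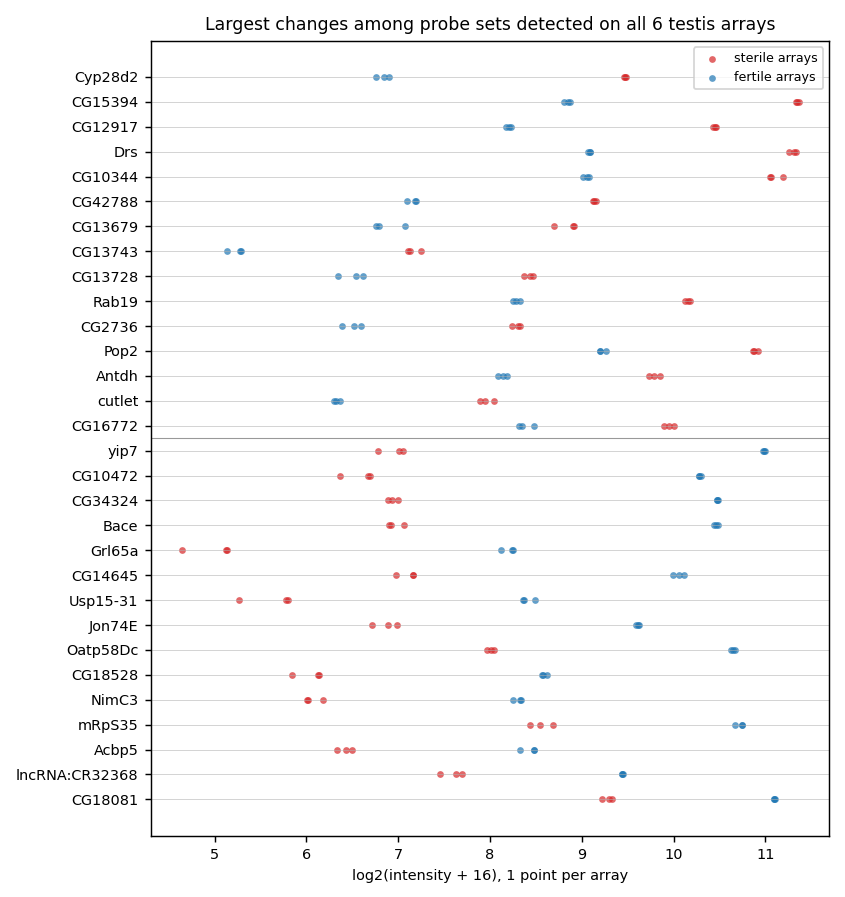
Intensities of the 15 largest rises (upper part) and the 15 largest falls (lower part) among probe sets detected on all 6 arrays, as log2(intensity + 16), with 1 point per array and 3 arrays per line. Only called probe sets without overlap between the lines were eligible, and the largest changes were taken, so the separation of the points is part of the choice.

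Detection in a single line was rarer, and its direction was not always that of the intensity. Present calls covered all 3 sterile and none of the fertile arrays for 89 probe sets, of which 50 rose, 4 fell and 35 were not called. The opposite held for 127, of which 63 fell, 14 rose and 50 were not called. A change of at least 1 was reached by 23 of the 89, all higher, and by 36 of the 127, 35 lower and 1 higher. Where 1 line lies at background a fold would be set by the pseudocount, and levels are given here in its place.

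Acp53C14b, a seminal protein gene of the accessory gland, was detected in sterile testis only, at 7236, 7110.1 and 7248 in sterile and -32.8, -32 and -32.9 in fertile testis. alphaKap4, a nuclear import receptor of the importin alpha family, measured 1957, 2085 and 1945 in sterile and -48.5, -62.4 and -45.8 in fertile testis. Spn28Da, a serpin, measured 1043, 959 and 1021 in sterile and -4.11, -2.61 and 2.39 in fertile testis. All 3 were bright on every sterile array and at or below 0, or within 3 units of it, on every fertile array. CG17994 measured 559, 552 and 529.5 in sterile and 181, 175 and 205 in fertile testis and differed by less, at 1.47 on the log2 scale. The other genes chosen by signal differed by less. Pgam5-2, of the phosphoglycerate mutase family, measured 800.4, 851 and 774 in sterile and 612, 621 and 629 in fertile testis, and gom, CG32187 and CG8388 rose by 0.29, 0.39 and 0.24. ranshi measured 603, 573 and 584 in sterile and 701, 771 and 759.8 in fertile testis, so that its intensity fell by 0.33 in the line in which alone it was called present, and a5 fell by 0.25.

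Of the 10 genes chosen likewise from those detected in fertile testis only, CG18179, related to the Jonah proteases, measured -4.33, -14.6 and -10 in sterile and 1426, 1485 and 1468 in fertile testis. Eaat2, a transporter of acidic amino acids, measured -13.8, -20.8 and -29 in sterile and 925, 928 and 877 in fertile testis. CG17197 measured -32.9, -21.2 and -15.3 in sterile and 753, 818 and 844 in fertile testis. These were at or below 0 on all sterile arrays and bright on all fertile ones, and CG8997 lay between 0.01 and 2.45 in sterile testis. epsilonTry, a trypsin, measured 92.6, 78.2 and 72.6 in sterile and 1303, 1282 and 1312 in fertile testis, and Jon25Bi, a Jonah protease, 23.4, 13.2 and 4.52 in sterile and 878, 841 and 928 in fertile testis. CG12374 and CG6295 kept sterile values of 104.2 to 112 and 53.7 to 65.7, against fertile values of 2075 to 2090 and 839.9 to 871. p, the pink eye-colour gene, fell by 0.68 and prage by 0.37 on the log2 scale.

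**Figure D3:**
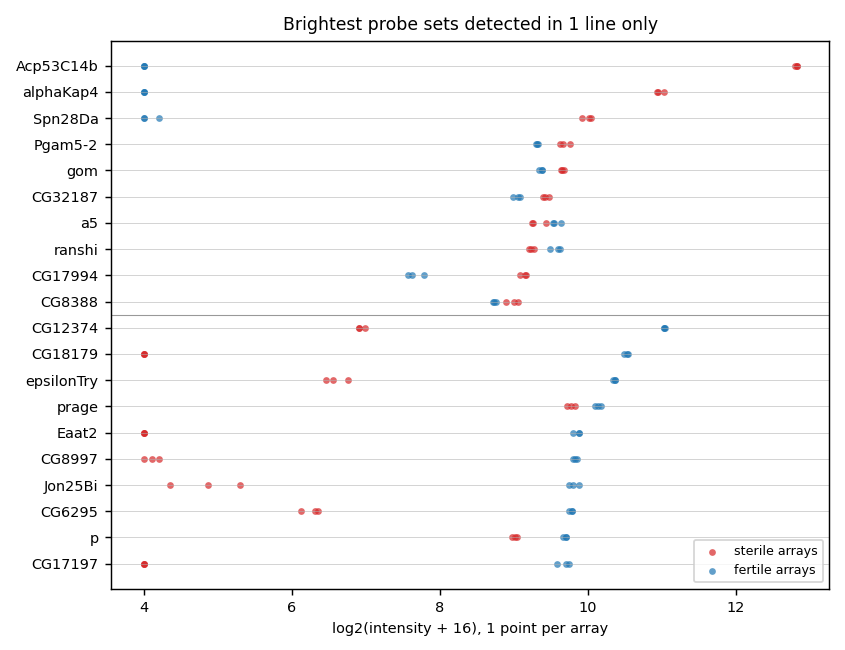
Intensities of the 10 brightest called probe sets detected on all 3 sterile and no fertile arrays (upper part) and of the 10 detected on all 3 fertile and no sterile arrays (lower part), as log2(intensity + 16), 1 point per array. A value of 4 is an intensity of 0 or below. Pgam5-2, gom, CG32187, CG8388 and prage show lines close together, and a5 and ranshi lie lower in the sterile line.

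Several probe sets of a gene did not always move together. Among 396 genes with more than 1 tested probe set, all were called in 1 direction in 106 and probe sets were called in opposite directions in 48. Of the 10 such genes with a change of at least 1, CG10344 alone had every probe set past that size, and 3 had calls in both directions. For CG9945, 1 probe set measured 6.05, 6.35 and 14.5 in sterile and 642, 692 and 652 in fertile testis and the other 877, 799 and 797 in sterile and 586, 607 and 598 in fertile testis. The first lay near 0 in sterile testis, and the second was higher there by 0.45 on the log2 scale. For alph, a protein phosphatase, the log2 fold changes of 3 probe sets were -0.59, 0.13 and 0.76. mbl, an RNA-binding splicing regulator, had probe sets at -0.87 and 0.59, both called. CG9380 had a probe set at -0.47 and another with intensities of 34.8, 47.7 and 49.3 in sterile and -94.8, -55.7 and -93.9 in fertile testis, for which no fold is given, and CG18507 had probe sets at -1.04 and 0.30. The value of any gene with a single probe set has no such check.

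No testis array had a present call for OdsH itself. The OdsH intensities were 135, 129.9 and 124 in sterile and 179, 134 and 175 in fertile testis, an exact two-sided permutation p of 0.2, where 3 against 3 arrays cannot go below 0.1. With intensities as deposited the exact permutation p was 0.1, and in a fit of all probe sets without the present-call filter the limma adjusted p was 0.0417. unc-4, its paralog and also a homeobox gene, measured 74.9, 63.2 and 72.7 in sterile and 40.1, 55 and 48.4 in fertile testis and was present on all 3 arrays of neither line. Its exact permutation p was 0.1, and in the fit without the present-call filter its limma adjusted p was 0.02. No fold is given for either gene at these background levels.

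Gene lists are described by counts of their members, each gene by its brightest tested probe set. Over all 8050 tested genes 60.9% were called, 2555 higher (31.7%) and 2349 lower (29.2%), and the median log2 fold change was 0.013. Medians of lists below are of the same quantity, and no list was tested as a whole. Passing the filter through 1 line alone favours members that differ between the lines, though not all such members did. The median over members detected on all 6 arrays therefore follows where it has the other sign or, for medians of at least 0.05 either way, is over 1.5 times larger or smaller. The same holds for medians with single arrays left out. The lists follow the course of sperm development. The germline stem cell and spermatogonia list had 13 members on the array, of which 8 were tested, 1 rose and 5 fell, and a median of -0.21, which was -0.343 over the 7 members detected on all 6 arrays. hts, an adducin-like protein of the fusome that links dividing germ cells, measured 256, 234 and 264 in sterile and 426, 435 and 454 in fertile testis. pum, a translational repressor, fell by 0.66 and Rbp9, an RNA-binding protein, by 0.55 on the log2 scale, while zpg, a germline gap junction protein, rose by 0.39. The hub, cyst and sheath cell list had 15 members on the array, of which 14 were tested, 5 rose and 3 fell, and a median of 0.064. upd1, the ligand that the hub sends to the stem cells, was dim and higher in the sterile line, at 100.3, 98.4 and 95 in sterile and 39.6, 24.4 and 30.8 in fertile testis. hh, the Hedgehog ligand, rose by 0.33.

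Spermatocyte transcription genes had 17 members on the array, of which 13 were tested, 6 rose and 2 fell, and a median of 0.13. That median was 0.055 over the members detected on all 6 arrays, and without 1 array it lay between 0.049 (without fertile replicate A) and 0.201 (without fertile replicate C), at 0.076 without sterile replicate B and 0.085 without sterile replicate C. mip40, a subunit of the testis meiotic arrest complex, measured 1694, 1698 and 1661 in sterile and 1205, 1124 and 1158 in fertile testis, and topi, another subunit, rose by 0.28. nht, a testis form of a general transcription factor subunit, rose by 0.43. The meiotic pairing and division list had 18 members on the array, of which 13 were tested, 4 rose and 3 fell, and a median of 0.022, a median that turned to -0.026 with intensities as deposited. Within it cid, the centromeric histone, rose by 0.53 and cal1, which loads it, fell by 0.33. tef, needed for pairing of autosomes, measured 266, 292 and 298 in sterile and 352, 379 and 387 in fertile testis.

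The cup and comet list had 18 members on the array, of which 17 were tested, 11 rose and 2 fell, and a median of 0.091, and counted 7 higher and 3 lower with intensities as deposited. d-cup measured 1512, 1518 and 1491 in sterile and 1176, 1153 and 1172 in fertile testis, and p-cup and h-cup rose by 0.31 and 0.29. The list also holds swm, which is not a cup or comet gene. The sperm tail and sperm chromatin list had 18 members on the array, of which 16 were tested, 10 rose and 1 fell, and a median of 0.086, and counted 8 higher and 2 lower with intensities as deposited and after quantile normalization. Against the rest, djl, a don juan-like sperm tail gene, fell: it averaged 1308 ± 18.6 on the sterile against 1803 ± 29.5 on the fertile arrays (SD, n = 3 each). Mst89B and Prtl99C, a sperm chromatin protein, rose by 0.35 and 0.35. Sperm leucyl aminopeptidases had 7 members on the array, all tested, of which 5 rose and 0 fell, and a median of 0.11, counted 3 higher and 1 lower with intensities as deposited, and S-Lap5 rose by 0.32.

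The axoneme and flagellum list had 38 members on the array, of which 26 were tested, 12 rose and 5 fell, and a median of 0.086. Its members ca, Ccdc58 and Ccdc85 are not established axoneme genes. Dhc62B, a dynein heavy chain, measured 725, 719 and 694 in sterile and 516, 513 and 501 in fertile testis, and Rsph9, a radial spoke protein, measured 3767, 3689 and 3727 in sterile and 2899, 2951 and 2940.3 in fertile testis. Genes chosen from the lists for their changes had to show no overlap between the lines, and both of these were higher in sterile testis. kl-3 and kl-5, dynein heavy chains needed for sperm tails and Y-linked in D. melanogaster, moved the other way. kl-3 measured -0.941, 1.93 and 16.2 in sterile and 371, 383 and 409 in fertile testis, and kl-5 measured 111, 105 and 105 in sterile and 228, 199.7 and 225 in fertile testis. kl-2, of the same kind, rose by 0.28, and the Y-linked list as a whole had 7 members on the array, of which 6 were tested, 3 rose and 2 fell, and a median of 0.033, which turned to -0.011 with intensities as deposited.

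The spermatid individualization list had 22 members on the array, of which 19 were tested, 2 rose and 8 fell, and a median of -0.029. Without 5 members judged not to belong there, taken out after the values were seen, 2 rose and 4 fell of 14. The falls with the largest size were those of asun and larp, at -0.63 and -0.47, which act more broadly than in individualization. scat fell by 0.36. klhl10, an adaptor of the Cullin-3 ligase that activates caspases during individualization, went against them at 2894, 3042 and 2881 in sterile and 2213, 2267 and 2273 in fertile testis.

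Testis-specific proteasome subunits mostly rose, with 13 members on the array, of which 11 were tested, 9 rose and 1 fell, and a median of 0.19, and counted 7 higher and 2 lower with intensities as deposited. Prosbeta5R2 measured 1158, 1056 and 1106 in sterile and 678, 658 and 678 in fertile testis, and Prosalpha4T2 rose by 0.34 and Prosalpha3T by 0.26. The general proteasome list had 26 members on the array, all tested, of which 9 rose and 2 fell, and a median of 0.029, a balance that turned to 4 higher and 7 lower with intensities as deposited. The difference between these lists was not tested. The piRNA pathway, which silences transposons in the germline, had 24 members on the array, of which 13 were tested, 8 rose and 1 fell, and a median of 0.20. cuff, a factor of piRNA cluster transcription, measured 141, 129 and 142 in sterile and 77.8, 70.8 and 75.8 in fertile testis, and Panx, which links piRNAs to chromatin silencing, measured 339, 343 and 349 in sterile and 201, 218 and 199 in fertile testis. aub, a PIWI protein, fell by 0.45. The heterochromatin list had 26 members on the array, of which 17 were tested, 4 rose and 6 fell, and a median of -0.062, which was -0.025 without sterile replicate C and -0.033 without fertile replicate B. HP1c, a heterochromatin protein 1 paralog, measured 1026, 989 and 937 in sterile and 406, 382 and 431 in fertile testis, the largest change of that list. Dosage compensation genes had 9 members on the array, of which 7 were tested, 0 rose and 4 fell, and a median of -0.17, and over the members detected on all 6 arrays 0 rose and 2 fell with a median of -0.049. Clamp, which recruits the dosage compensation complex, fell by 0.22, and JIL-1, MTF-1 and Unr lost their calls when single arrays were left out (JIL-1 at -0.21 without fertile replicate A, MTF-1 at -0.16 without fertile replicate C and Unr at -0.13 without fertile replicate C). Of these, MTF-1, a metal-responsive transcription factor, is not an established dosage compensation gene.

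Genes of mitochondria and energy metabolism changed in both directions. Mitochondrial ribosomal proteins had 69 members on the array, of which 65 were tested, 30 rose and 10 fell, and a median of 0.085, although mRpS35 fell as given above and mRpS22 fell by 0.57. mRpL35 rose by 0.47. The respiratory chain and ATP synthase list had 80 members on the array, all tested, of which 26 rose and 15 fell, and a median of 0.029, turning to 18 higher and 26 lower with intensities as deposited. Within it, 23 members have a symbol ending in L, or in L and a digit, which marks paralogs of a subunit. They counted 15 higher and 2 lower with a median of 0.12. The other 57 counted 11 higher and 13 lower with a median of -0.005. This division was made after the values were seen and is a description only. UQCR-11L measured 3982, 4063 and 3836 in sterile and 2899, 2826 and 2956 in fertile testis, and ND-51L1 and COX7AL2 rose by 0.41 and 0.57. The citric acid cycle had 22 members on the array, all tested, of which 10 rose and 4 fell, and a median of 0.045, which became -0.003 with intensities as deposited, and Fum2, a fumarase, rose by 0.33. Glycolysis had 19 members on the array, of which 17 were tested, 8 rose and 3 fell, and a median of 0.084, which was 0.05 without sterile replicate C and 0.052 with the median over the probe sets of a gene, and the counts were 8 higher and 7 lower with intensities as deposited. Hex-A, a hexokinase, fell: it averaged 364 ± 20.7 on the sterile against 653 ± 19.5 on the fertile arrays (SD, n = 3 each), and of the glycerol-3-phosphate dehydrogenases Gpdh2 rose by 0.56 and Gpdh3 fell by 0.45.

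The medians of the lists of protein synthesis and folding lay between -0.064 and 0.076. Cytoplasmic ribosomal proteins had 34 members on the array, all tested, of which 4 rose and 6 fell, and a median of -0.008. These counts depended on the scaling, at 1 higher and 20 lower with intensities as deposited and 3 higher and 18 lower after quantile normalization, and the median was 0.001 without sterile replicate A and 0.002 without fertile replicate C. RpS10a rose by 0.24 and RpL34a fell by 0.17. Translation initiation factors had 40 members on the array, of which 38 were tested, 9 rose and 18 fell, and a median of -0.064. eIF3b fell by 0.28, whereas eIF4E4, a cap-binding paralog, measured 7369, 7374 and 7013 in sterile and 5827, 6063 and 6255 in fertile testis. tRNA synthetases had 29 members on the array, of which 26 were tested, 9 rose and 4 fell, and a median of 0.043, -0.003 with intensities as deposited, and GluRS-m, a mitochondrial one, rose by 0.74. The CCT chaperonin had 8 members on the array, all tested, of which 1 rose and 4 fell, and a median of -0.056, -0.037 without sterile replicate C, and the counts were 0 higher and 6 lower with intensities as deposited. Heat shock proteins and chaperones had 18 members on the array, all tested, of which 10 rose and 3 fell, and a median of 0.076, and counted 5 higher and 4 lower with intensities as deposited. Hsc70-1 measured 2944, 3034 and 2871 in sterile and 1857, 1884 and 1869 in fertile testis, and Hsp27 measured 1524, 1645 and 1549 in sterile and 2245, 2353 and 2239.7 in fertile testis.

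The midgut digestive enzyme list had 66 members on the array, of which 37 were tested, 3 rose and 29 fell, and a median of -0.56, and 16 fell by at least 1 on the log2 scale, among them yip7, Bace and Jon74E. Jon65Aiii, a Jonah protease, measured 134, 155 and 127 in sterile and 2405, 2490.5 and 2440.4 in fertile testis. Many members passed the filter through the fertile line alone, and among the 19 detected on all 6 arrays 14 fell and 3 rose, with a median of -0.225. The list holds SerRS, Serinc, cathD, LManII and LManV, which are not specific to digestion. Without these 5 genes, taken out after the values were seen, the counts were 2 higher and 27 lower of 32 and the median was -1.26. Over all 66 members on the array, these 5 genes included, the summed intensity was 19173 to 20018 in sterile and 40582 to 41480 in fertile testis. The sum is thus not of digestive enzymes alone. Absent on all 6 arrays were 12 members, such as kappaTry, Ser12 and tobi. The part that gut RNA has in these falls was not tested. Gut surface and peritrophic matrix genes had 28 members on the array, of which 11 were tested, 2 rose and 3 fell, and a median of 0.002, turning to -0.046 with intensities as deposited and -0.036 after quantile normalization, -0.023 over the members detected on all 6 arrays, and to between -0.003 and -0.032 without sterile replicate A or B or fertile replicate B or C. Their summed intensities overlapped, at 27445 to 28239 in sterile and 27761 to 28328 in fertile testis. Muc68D, a mucin, measured 38.1, 24.9 and 29.6 in sterile and 184, 164 and 189.6 in fertile testis, and Muc11A measured 645, 688 and 659.8 in sterile and 1107, 1086 and 1133 in fertile testis.

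Accessory gland seminal protein genes were bright in both lines, with a summed intensity of 149586 to 152108 in sterile and 145472 to 147953 in fertile testis. This sum includes Acp53C14b, at 7236, 7110.1 and 7248 in sterile and -32.8, -32 and -32.9 in fertile testis. Its difference between the lines is larger than that between any sterile and any fertile sum, so the higher sterile sum rests on this 1 gene. The list had 47 members on the array, of which 41 were tested, 11 rose and 19 fell, and a median of -0.064, -0.026 without fertile replicate C. Sfp53D measured 792, 684 and 726 in sterile and 1470.2, 1439.7 and 1518 in fertile testis. The list also holds Acp65Aa, an adult cuticle protein gene and not a seminal one. It was dim at 86, 91 and 107 in sterile and 41.1, 34.6 and 32.3 in fertile testis. Ejaculatory duct and bulb genes had 12 members on the array, all tested, of which 4 rose and 3 fell, and a median of 0.043, -0.005 with intensities as deposited. Their summed intensity was 57820 to 59554 in sterile and 54207 to 55288 in fertile testis. Obp56h, an odorant-binding protein, measured 460.4, 506 and 426 in sterile and 24.6, 24.6 and 23.5 in fertile testis, while Obp56g measured 3158, 3396 and 3246 in sterile and 2052, 2071 and 2077 in fertile testis. EbpII, a bulb protein, measured 6903, 6893 and 6842 in sterile and 5455, 5413 and 5476 in fertile testis. The part of male tract tissue other than testis in these values was not tested.

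Genes of other tissues moved in both directions. Fat body genes had 21 members on the array, of which 14 were tested, 2 rose and 6 fell, and a median of -0.058, with a summed intensity of 19785 to 19932 in sterile and 21289 to 21505 in fertile testis, and the yolk protein genes Yp2 and Yp3 were absent on all 6 arrays. apolpp, the lipid carrier of the blood, fell by 0.36 and Cyp4g1, an enzyme of cuticle hydrocarbon synthesis, fell by 0.36. Muscle genes had 24 members on the array, of which 19 were tested, 6 rose and 6 fell, and a median of 0.009, -0.038 with intensities as deposited, and summed to 18156 to 18814 in sterile and 17926 to 18283 in fertile testis. nau, a muscle-determining transcription factor, was detected in sterile testis only, at 313, 323 and 305 in sterile and 10.7, 10.2 and 10.6 in fertile testis. Zasp52, a protein of the muscle Z-disc, fell by 0.37. Blood cell genes had 21 members on the array, of which 10 were tested, 2 rose and 4 fell, and a median of -0.008, 0.001 after quantile normalization. The blood cell sum was 5951 to 6145 in sterile and 6420 to 6639 in fertile testis. Hml, a blood cell marker, was absent on all 6 arrays. Pxn, peroxidasin, fell: it averaged 387 ± 9.84 on the sterile against 812 ± 44.2 on the fertile arrays (SD, n = 3 each). Malpighian tubule genes had 14 members on the array, of which 13 were tested, 3 rose and 6 fell, and a median of -0.13, -0.03 without sterile replicate C and -0.216 without sterile replicate A, and summed to 10303 to 10438 in sterile and 12062 to 12456 in fertile testis. Smvt, a vitamin transporter, measured 679, 693 and 638 in sterile and 1488, 1468 and 1533 in fertile testis, and Irk3, a potassium channel, fell by 1.04. Of 16 nervous system genes on the array 4 were tested, and nrv3, a sodium pump subunit, alone was called, at -0.58.

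The detoxification lists moved both ways. The cytochrome P450 list had 80 members on the array, of which 48 were tested, 9 rose and 27 fell, and a median of -0.19, which was -0.294 over the members detected on all 6 arrays. Apart from Cyp28d2, Cyp6a14 rose, at 381, 400.2 and 393 in sterile and 167, 167 and 166 in fertile testis. Cyp4e3 measured 85.7, 95.1 and 111 in sterile and 320.4, 317 and 329 in fertile testis and Cyp6a23 measured 312, 289 and 291 in sterile and 616, 663 and 679 in fertile testis. Glutathione S-transferases had 36 members on the array, of which 24 were tested, 6 rose and 10 fell, and a median of -0.011, turning to 0.015 without sterile replicate C. GstD2 fell by 0.66 and GstE2 rose by 0.56. UDP-glycosyltransferases had 35 members on the array, of which 18 were tested, 4 rose and 9 fell, and a median of -0.14, with Ugt303B1 detected in sterile testis only at 152, 135 and 139 in sterile and 62.8, 59.5 and 60.7 in fertile testis. Carboxylesterases and hydrolases had 13 members on the array, of which 9 were tested, 4 rose and 2 fell, and a median of 0.046, turning to -0.002 with intensities as deposited and -0.058 over the members detected on all 6 arrays, and Est-Q fell by 0.61.

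None of the tested antimicrobial peptide genes was called lower. The list had 22 members on the array, of which 13 were tested, 7 rose and 0 fell, and a median of 0.24. Beside Drs, Drsl5, a drosomycin paralog, measured 477, 489 and 481 in sterile and 377, 326 and 288 in fertile testis, and BomBc3, a bomanin, measured 517, 509.7 and 488 in sterile and 358, 343 and 365 in fertile testis. Immune recognition and signalling genes had 31 members on the array, of which 19 were tested, 5 rose and 5 fell, and a median of 0.079. It was 0.015 over the members detected on all 6 arrays, and without 1 array it lay between 0.014 (without fertile replicate B) and 0.152 (without sterile replicate B), at 0.015, 0.019 and 0.04 without fertile replicate A, sterile replicate A and sterile replicate C. Tep4, a thioester protein, measured 2053, 2118 and 1989 in sterile and 1055, 1153 and 1144 in fertile testis, and PGRP-LA, of the peptidoglycan recognition family, fell by 0.63. Nazo was detected in sterile testis only, at 319, 303 and 306 in sterile and 16.3, 12.6 and 4.65 in fertile testis. Odorant-binding proteins had 47 members on the array, of which 20 were tested, 7 rose and 6 fell, and a median of 0.066. Over the members detected on all 6 arrays 3 rose and 6 fell with a median of -0.031, and without fertile replicate A the median was 0.042. Obp99b measured 346, 376 and 374 in sterile and 162, 195 and 188 in fertile testis. Of 166 chemoreceptor genes on the array 29 were tested, 8 rose and 2 fell, 3 and 0 among those detected on all 6 arrays, and Or67d, a pheromone receptor, rose by 0.47.

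Serpins had 28 members on the array, of which 21 were tested, 8 rose and 7 fell, and a median of -0.01, turning to 0.022 after quantile normalization, 0.017 over the members detected on all 6 arrays, and 0.007 and 0.004 without sterile replicate C and fertile replicate B. The counts were 6 higher and 9 lower with intensities as deposited, 6 and 7 without sterile replicate A, and 7 and 8 without sterile replicate B. Spn28Db, a paralog of Spn28Da, measured 767, 802 and 728 in sterile and 1180.1, 1129 and 1131 in fertile testis, so that these 2 genes moved in opposite directions. Of 4 tested astacin metalloproteases, CG15253 was detected in sterile testis only, at 394, 403 and 376 in sterile and -14.2, -26.4 and -23.8 in fertile testis, and Semp1, which processes seminal proteins, measured 1208, 1164 and 1156 in sterile and 1975, 1854 and 1977 in fertile testis. The solute carriers had 33 members on the array, of which 25 were tested, 5 rose and 14 fell, and a median of -0.11. Oatp58Da, a paralog of Oatp58Dc, rose by 0.49 where Oatp58Dc fell. The vacuolar proton pump had 31 members on the array, of which 27 were tested, 6 rose and 14 fell, and a median of -0.083. Vha16-1 measured 2603, 2599.5 and 2558 in sterile and 3459, 3506 and 3579.8 in fertile testis, and its paralog Vha16-5 measured 1443, 1506 and 1484 in sterile and 1189, 1136 and 1160.5 in fertile testis.

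The remaining lists had changes in both directions. DNA replication genes had 28 members on the array, of which 24 were tested, 9 rose and 3 fell, and a median of 0.084, 0.047 without sterile replicate A. dup, the Cdt1 factor that licenses replication origins, measured 626, 669 and 633 in sterile and 270.1, 308 and 297 in fertile testis, and Mcm5, a subunit of the replicative helicase, rose by 0.41. Nuclear import receptors had 21 members on the array, of which 19 were tested, 9 rose and 5 fell, and a median of 0.077, and Ntf-2, a transporter of Ran, rose by 0.31. Without ranshi, judged not to belong there and taken out after the values were seen, 9 rose and 4 fell of 18. Nucleoporins had 26 members on the array, of which 20 were tested, 8 rose and 2 fell, and a median of 0.058, 0.022 without sterile replicate B, and counted 6 higher and 4 lower with intensities as deposited, with Nup133 at 271, 245 and 253 in sterile and 419, 433 and 454 in fertile testis. Tubulins had 9 members on the array, of which 8 were tested, 3 rose and 2 fell, and a median of 0.061, 0.095 over the members detected on all 6 arrays and 0.014 without sterile replicate B. Kinesins had 19 members on the array, of which 14 were tested, 3 rose and 8 fell, and a median of -0.18. Over the members detected on all 6 arrays 3 rose and 5 fell with a median of -0.018, and the median was -0.099 with the median over the probe sets of a gene. unc-104, a motor of vesicle transport, fell by 0.65. The PP1-type phosphatase list had 11 members on the array, of which 10 were tested, 4 rose and 4 fell. Its median was 0.052, and 0.027 without sterile replicate A. It also holds PpD3 and PpV, judged not to belong there. Without these, taken out after the values were seen, 4 rose and 3 fell of 8, with a median of 0.115. Pp1-87B measured 1471, 1498 and 1415 in sterile and 2101, 2096 and 2177 in fertile testis. PpY-55A, a testis paralog, measured 1353, 1293 and 1296 in sterile and 1018, 1019.9 and 1047 in fertile testis. Homeodomain transcription factors had 72 members on the array, of which 25 were tested, 8 rose and 3 fell, and a median of 0.017, -0.006 with intensities as deposited, and ftz rose by 0.65. Of the known hybrid incompatibility genes, with 9 members on the array, of which 5 were tested, 1 rose and 1 fell, and a median of 0.04, -0.006 with intensities as deposited and -0.029 without fertile replicate B, agt, a DNA repair alkyltransferase, fell by 0.71 and gfzf rose by 0.37.

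**Figure D4:**
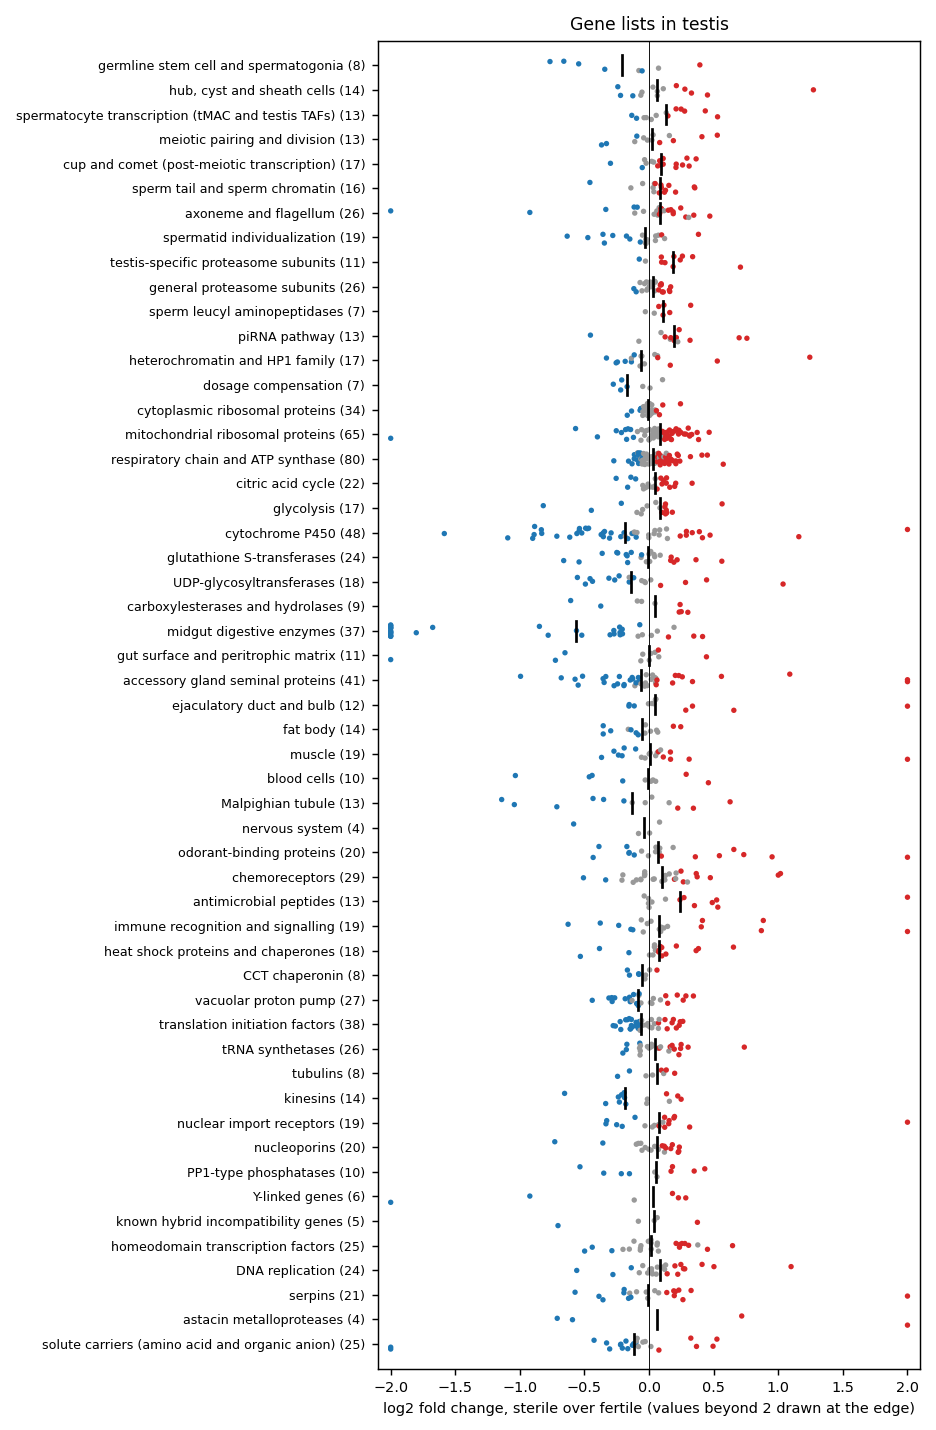
Log2 fold change of sterile over fertile testis (horizontal axis) for the tested members of the 53 gene lists (vertical axis, number tested in brackets), 1 point per gene. Red points rose, blue points fell, grey points were not called, and black bars are medians. Points beyond 2 either way are drawn at the edge. The midgut digestive enzymes hold 16 falls of at least 1, several of them drawn at the left edge.

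In abdomen, on another array design, 32 of 6983 probe sets (0.458%) were called with the same kind of test. Array design, processing and choice of probe sets differ from testis, so the shares called in the tissues cannot be compared. Among 85 genes that rose by at least 1 in testis 35 were fitted in abdomen, 21 at a positive and 14 at a negative fold change, and 2 were called. Among 103 genes that fell by at least 1 in testis 71 were fitted in abdomen, 29 at a positive and 42 at a negative fold change, and 3 were called. Drs was higher in sterile abdomen too, by 3.35 on the log2 scale (limma adjusted p = 0.000856), and Oatp58Dc was at -2.75 (limma adjusted p = 0.0596). Oatp58Dc measured 254, 214 and 45.4 in sterile and 1195, 1048 and 893 in fertile abdomen. Of the 29 midgut enzymes that fell in testis 28 were fitted in abdomen, 19 at a positive and 9 at a negative fold change, and 2 were called. Their median log2 fold change in abdomen was 0.051. yip7 was at 0.05, Bace at 0.24 and Jon74E at -0.014 in abdomen. All of these were very bright there, with yip7 at 40005, 43272 and 32689 in sterile and 42119, 37636 and 31944 in fertile abdomen. Whether signals of that height still follow the transcript level was not tested. CG6295 was at -0.66 (limma adjusted p = 0.0544), epsilonTry at -0.65 (limma adjusted p = 0.0914) and Jon25Bi at -0.77 (limma adjusted p = 0.128). Jon65Ai and Mal-A1, which also fell in testis, were at 0.91 and 0.57 in abdomen. Whether the change differs between the tissues was not tested.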

How the data were processed

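Affymetrix arrays of 3 sterile and 3 fertile testis samples were used. The deposited testis values are intensities on a linear scale. The submitters' processing notes name MAS5, but 26 to 37 intensities per array lie below 0, which MAS5 signals do not, so the method for testis is not given in the sources used here. The authors' deposited table gives present calls as a percent of each line's arrays, per the file headers, and a fold score that was not used here. Side B of it was taken as sterile, because the mean column of side E matched the fertile mean (within 2 percent or 2 units for 99.7%). A further 12 columns of it were not used, as their names match samples of both tissues.

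Each array was scaled to the mean of the array medians (factors 0.979 to 1.024), values below 0 were set to 0, and log2(intensity + 16) was fitted with limma 3.58.1 (lmFit, eBayes with trend) in R 4.3.3, with Benjamini-Hochberg adjustment over 9927 probe sets. The fit was also run on simulated data with known changes and noise independent between arrays. Such data cannot check calls that come from variation shared by the arrays of a line. Platform symbols gave 1 gene for 13647 probe sets, several for 402 and none for 4720. Sequences and chromosomes were not analysed here. The number of arrays limits the precision. Abdomen intensities, MAS5 signals per the same notes, were fitted likewise on the brighter probe sets.

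Genes named were, among called probe sets without overlap, the 15 largest rises and falls detected on all 6 arrays, the 10 brightest detected in either line only and up to 4 largest changes per list, with OdsH and unc-4, the 5 genes with the most opposed probe sets and the 5 brightest genes. The comparison, the 53 lists and the genes were chosen with earlier results of these data known. Once all members' values had been seen, a trimmed version of 11 lists was made. It serves only as an alternative, and the counts are those of the lists as first written.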

Additional observations from a re-analysis of the deposited data

How the results depend on the processing

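The counts of called probe sets moved by less than 1.5 times under every alternative run, and so did the counts by direction. With intensities as deposited 5995 were called, 2245 higher and 3750 lower, and after quantile normalization 5988, 3028 higher and 2960 lower. The median log2 change of all tested probe sets was 0.007 as scaled here, -0.039 as deposited and 0.007 after quantile normalization. The counts of changes of at least 1 moved more. Higher ones numbered 61 with a pseudocount of 64, 56 among probe sets present on all 6 arrays and 203 with no filter on present calls. Lower ones numbered 56 among probe sets present on all 6 arrays and 221 with no filter. Leaving out each array in turn gave 5280 to 5719 calls, with 102 to 106 higher and 118 to 127 lower by at least 1. The replicate letters did not pair the samples, as deviations of same-lettered arrays correlated at -0.068, 0.153 and 0.053. A fit with the letter as a replicate block called 5925, 2984 higher and 2941 lower. Of 255 named probe sets 15 changed a call under some alternative. In 3507 single comparisons 57 lost a call, 2 gained one and 1 reversed, that of Mst84Dc, at -0.002 with intensities as deposited. CCT8, CG10252, Mst84Dc and the dim probe set of mbl account for most lost calls. The medians of 12 of 53 lists changed sign with intensities as deposited, of 3 after quantile normalization, of 6 over members detected on all 6 arrays and of 0 to 3 with 1 array left out. The trimmed lists, chosen after seeing the data, moved the midgut median from -0.562 to -1.26 (2 higher and 27 lower of 32), and spermatid individualization from 2 higher and 8 lower of 19 to 2 and 4 of 14. The PP1-type median went from 0.052 to 0.115 and the Malpighian tubule median from -0.13 to -0.195. The causes were not tested. Sets of dim probes, where 1 line lies at background, have no measured fold.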
